A study of Homo sapiens with 12 samples.

Results

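The set described here comprised 53 genes of the nucleolus and of ribosome biogenesis, taken by symbol from a fixed list, out of 60617 genes counted. All 53 were found by their Ensembl identifiers and all 53 passed the filter on low counts, which kept 23041 genes. The RNA came from 12Z, an immortalized epithelial line from human endometriosis, and was sequenced as mRNA libraries of 4 groups, with 3 libraries each from independent experiments. Fold changes below are given on the log2 scale with their standard error (SE). Control cells carried the pCAG empty vector and were given vehicle, Insulin cells carried the same vector and were given 100 nM insulin, Viperin cells carried the pCAG Viperin plasmid and were given vehicle, and Viperin + Insulin cells carried the Viperin plasmid and were given 100 nM insulin. Cells of every group were transiently transfected with FuGene HD, starved of serum for 4 h before treatment and collected 24 h after it. One line of the sample descriptions names pBabe as the empty vector, whereas the treatment labels give pCAG. The comparisons asked how insulin and Viperin overexpression (OE) each changed these genes, and whether the insulin response depended on the plasmid. In bulk RNA, a change in RNA per cell and a change in the share of cells that express a gene cannot be told apart, and transient transfection leaves a mixture of transfected and untransfected cells.

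Ribosomes are built in the nucleolus, where RNA polymerase I (Pol I) transcribes the ribosomal RNA precursor. Small nucleolar ribonucleoproteins (snoRNPs) modify that precursor, and the small subunit processome and a series of assembly factors cut it and fold it into the precursors of the small (40S) and large (60S) subunits. Insulin and the PI3K-AKT-mTOR pathway are known to promote ribosome production in growing cells, and the transcription factor MYC is a known activator of many genes of this pathway.

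The libraries held 25979022 to 46889002 read pairs assigned to genes. Control library 1 and Viperin library 3 stood apart, with 13.9% and 12.1% of pairs mapping to more than 1 place against 9.44% to 10.99% in the other 10 libraries. RSAD2, the gene encoding Viperin, reached 384 to 665 CPM (counts scaled for library size) in the 6 libraries with the Viperin plasmid and 2.28 to 5.19 in the 6 without it, so the plasmid labels matched the RNA. Of the epithelial markers, KRT8, KRT18 and KRT19 were abundant and KRT7 ranged from 33.5 to 39.4 CPM. EPCAM (0.077 to 0.832 CPM) and CDH1 (0.789 to 2.03) were close to 0. Of the mesenchymal or stromal markers, VIM and COL1A1 ranged from 1397 to 1723 and from 1123 to 1671 CPM. COL1A2 ranged from 399 to 608 CPM, THY1 from 356 to 396, CDH2 from 151 to 179 and PDGFRB from 48.4 to 71.8. DES was close to 0 (0.0427 to 0.269 CPM). The 3 endothelial markers summed to 5.18 to 7.53 CPM and the 3 immune markers to 4.996 to 7.47. Of the immune markers, CD14 ranged from 4.53 to 5.87 CPM, PTPRC from 0.467 to 1.87, and CD3E had at most 1 count in a library. The summed level of 6 epithelial markers was 2544 to 2621 CPM in Control, 2674 to 2807 in Insulin, 2453 to 2548 in Viperin and 2574 to 2707 in Viperin + Insulin libraries. That of 7 mesenchymal or stromal markers was 3812 to 3991, 3887 to 3947, 4105 to 4280.1 and 4117 to 4374 in the same order. The part of these marker shifts in the results was not tested.

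Levels differed widely between the members. On a scale of TPM (counts per exon length, scaled to the same total in each library and averaged over 12 libraries), NPM1, a histone and ribosome chaperone of the nucleolus, was highest at 591, followed by the RNA-binding protein NCL at 409, the snoRNP subunits NHP2 at 252 and NOP10 at 239, and the rRNA methyltransferase FBL at 227. NPM1 stood at percentile 99.3 of 22946 genes with a known exon length. Pol I subunits were lower, with POLR1A at 28.6 and POLR1B at 27.8 TPM. The lowest were SURF6 at 3.04, PPAN at 2.75 and NOP2 at 0.465. NOP2 held 6 to 36 counts per library and PPAN 46 to 99. Of their exon bases, 54.4% and 49.2% are shared on the same strand with another gene model, and the counting left pairs that match 2 genes unassigned. The values of NOP2 and PPAN therefore rest on few reads. Reads of NPM1, which has 49 named pseudogenes in the annotation, and of RRN3, which has 5, could be lost to or shared with those copies.

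Insulin raised most of these genes by a small amount. Relative to the mean of the Control libraries, the median member stood at 0.13, 0.15 and 0.13 (log2) in the 3 Insulin libraries, at -0.04, -0.05 and -0.05 in the Viperin libraries and at 0.08, 0.08 and 0.11 in the Viperin + Insulin libraries. The insulin-treated libraries lay above all vehicle libraries with either plasmid, and the Viperin libraries lay below the Control libraries, which stood at -0.01, -0.01 and 0.01. For insulin averaged over both plasmids (6 insulin libraries against 6 vehicle libraries), 37 of 53 members rose, none fell and 16 did not pass an adjusted p of 0.05 from edgeR's quasi-likelihood test, adjusted over all 23041 genes. Of all genes tested, 5.76% rose and 5.97% fell in this comparison, and among the 8034 genes that averaged 17.8 CPM or more, the level of the tenth percentile of the members, 14.1% rose and 11.7% fell. The median log2 change was 0.13 over the members and 0.00 over all genes, and 50 of 53 members had a positive sign. At the stricter threshold of 0.001, 20 members rose, against 3.92% of all genes called in either direction. Each of the 12 libraries was left out in turn, which gave 32 to 37 members called, none of them lower, and 29 of the 37 rose whichever library was left out. With both Control library 1 and Viperin library 3 removed, 34 rose and none fell.

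**Figure D1:**
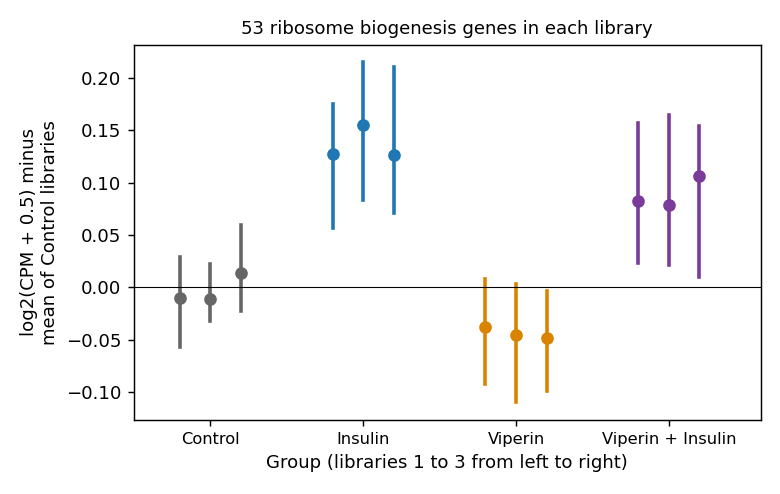
Median (points) and quartiles (lines) over the 53 ribosome biogenesis genes of log2(CPM + 0.5) minus the mean of the 3 Control libraries, in each of the 12 libraries. The medians of the 6 insulin-treated libraries lie between 0.08 and 0.15, above those of the 6 vehicle libraries, and those of the Viperin libraries lie at -0.04 to -0.05.

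The smallest p fell on assembly factors of both subunits. TSR1 (chr17:2322396-2336657), a factor of small subunit maturation in the cytoplasm, was at 155, 163 and 156 CPM in Control and 159, 155 and 154 in Viperin libraries. It was at 179, 183 and 184 CPM in Insulin and 182, 180.1 and 185 in Viperin + Insulin libraries. The 6 insulin libraries did not overlap the 6 vehicle libraries, and TSR1 rose by 16.01% (log2 change 0.21 ± 0.03 SE, adjusted p = 1.3e-09 from edgeR). EBNA1BP2 (chr1:43164175-43270936), a large subunit assembly factor, was at 119, 124 and 122 CPM in Control, 139, 145 and 142 in Insulin, 114, 108 and 114 in Viperin and 131, 131 and 131 in Viperin + Insulin libraries. Its levels with insulin were again higher with each plasmid, and it rose by 16.9% (log2 change 0.22 ± 0.03 SE, adjusted p = 1.0e-09 from edgeR). MRTO4, which helps to place the ribosomal stalk on the large subunit, was at 58.9, 59.1 and 55.8 CPM in Control, 65.1, 73.5 and 70.5 in Insulin, 57.8, 56.7 and 59.5 in Viperin and 65.4, 65.7 and 66.5 in Viperin + Insulin libraries. It rose by 17.02% (log2 change 0.23 ± 0.03 SE, adjusted p = 1.0e-07 from edgeR), again without overlap.

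The small subunit maturation factors as a group showed a median log2 change of 0.20 with insulin, and 4 of the 5 rose. LTV1, an export adaptor of the small subunit, had the largest change of the members that rose, 18.2% (log2 change 0.24 ± 0.05 SE, adjusted p = 2.2e-04 from edgeR). Its levels were 15.6, 16.4 and 17.4 CPM in Control and 19.4, 18.6 and 17.4 in Insulin libraries, which overlap, against 15.5, 14.8 and 15.01 in Viperin and 19.1, 19.2 and 18.5 in Viperin + Insulin libraries, which do not. Of the LTV1 exon bases, 34.7% overlap another gene model on the same strand. RRP12 and BYSL rose by 14.2% and 14.6%. NOB1, the endonuclease that makes the final cut of the small subunit rRNA, did not pass, with a log2 change of 0.06 ± 0.04 (SE, adjusted p = 0.40 from edgeR).

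In the small subunit processome, which assembles on the nascent rRNA precursor, 11 of 12 members rose, with log2 changes of 0.10 to 0.22 over all 12 and a median of 0.16. UTP15, a subunit of the complex that binds the precursor first, was at 42.3, 40.8 and 41.3 CPM in Control, 46.9, 49.1 and 49.4 in Insulin, 44.9, 42.8 and 41.4 in Viperin and 50.4, 48.5 and 51.7 in Viperin + Insulin libraries. It rose by 16.7% (log2 change 0.22 ± 0.03 SE, adjusted p = 1.0e-06 from edgeR). Of the others, the rRNA pseudouridine methyltransferase EMG1 rose by 16.3%, the U3 snoRNP protein IMP4 by 13.1%, the early-binding factor WDR43 by 12.1%, UTP20 by 12.6%, and the RNA acetyltransferase NAT10 by 7.801%. IMP3, the partner of IMP4, did not pass (log2 change 0.10, adjusted p = 0.071 from edgeR). The call of HEATR1 was lost without Viperin library 2 or Viperin + Insulin library 3. The call of NOP14 was lost without Control library 1, Insulin library 2 or 3, Viperin library 2 or 3 or Viperin + Insulin library 2, with both Control library 1 and Viperin library 3 removed, by DESeq2, by limma-voom and without the robust option.

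Large subunit factors moved in the same direction. All 3 members of the PeBoW complex, which is needed to process the large subunit rRNA, rose, BOP1 by 14.7%, WDR12 by 9.63% and PES1 by 7.96%. BOP1 was at 38.03, 39.6 and 41.2 CPM in Control, 43.5, 47.98 and 47.7 in Insulin, 35.5, 35.5 and 37.4 in Viperin and 41.4, 43.3 and 37.6 in Viperin + Insulin libraries, so that Viperin + Insulin overlapped Control but not Viperin. Of the other 13 large subunit factors, 8 rose, and NIP7 had a log2 change of 0.23 ± 0.04 (SE, adjusted p = 5.8e-06 from edgeR). The 5 that did not pass were NOP2, PPAN and SURF6, which held 6 to 145 counts per library, and RRP1 and GNL3. GNL3, also called nucleostemin, had a log2 change of 0.04 ± 0.03 (SE). FTSJ3, the weakest call of the large subunit factors (log2 change 0.08 ± 0.03 SE, adjusted p = 0.037 from edgeR), was kept in 2 of 12 fits with 1 library left out, and was lost by DESeq2, by limma-voom, without the robust option and with both Control library 1 and Viperin library 3 removed. The 2 that kept it left out Control library 3 or Viperin + Insulin library 3. RRS1 and GNL2 were each kept in 6 of the 12, and both were lost without Control library 2, Insulin library 2, Viperin library 1 or Viperin + Insulin library 1. RRS1 was also lost by DESeq2, whereas GNL2 was kept in the 10 other settings.

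**Figure D2:**
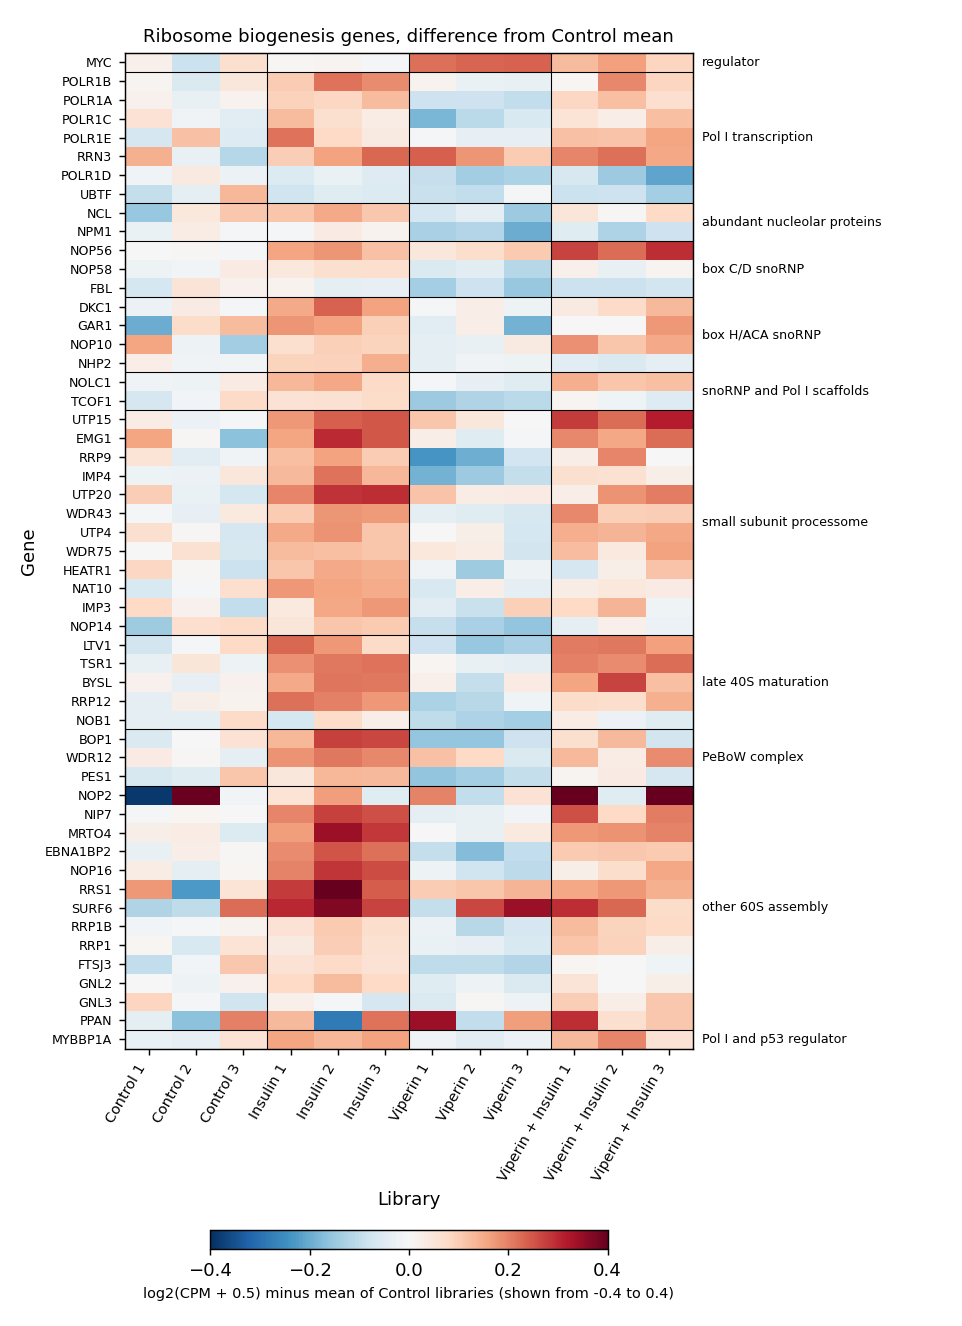
Difference of log2(CPM + 0.5) from the mean of the 3 Control libraries for the 53 genes (rows, grouped by role) in the 12 libraries (columns), with red above and blue below that mean and the scale limited to 0.4 in each direction. Rows of the small subunit processome, the late 40S factors and the 60S factors are mostly red in the insulin libraries, while MYC is red in the Viperin libraries.

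Pol I transcription was divided. The 2 largest subunits rose, POLR1A by 10.1% (log2 change 0.14 ± 0.03 SE, adjusted p = 5.6e-05 from edgeR) and POLR1B by 10.1% (log2 change 0.14 ± 0.03 SE, adjusted p = 0.0013 from edgeR), and so did POLR1C and POLR1E. POLR1A was at 139.8, 135 and 139.5 CPM in Control, 147, 146 and 151 in Insulin, 131, 131 and 129 in Viperin and 146, 150.3 and 145 in Viperin + Insulin libraries. UBTF, which binds the rDNA promoter, POLR1D and the initiation factor RRN3 did not pass, with log2 changes of -0.05, -0.03 and 0.09 (standard errors 0.03, 0.03 and 0.05). MYBBP1A, a nucleolar protein that represses Pol I and binds p53, rose by 11.1% (log2 change 0.15 ± 0.03 SE, adjusted p = 1.2e-04 from edgeR). The call of POLR1E was lost without Control library 1 or 3, Insulin library 1 or Viperin + Insulin library 3, and that of POLR1C without Insulin library 1, Viperin library 1 or Viperin + Insulin library 3.

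In the modification machinery, partners of the same complex did not all pass. Of the box C/D snoRNP proteins, which guide methylation of rRNA, NOP56 rose by 12.6% (log2 change 0.17 ± 0.03 SE, adjusted p = 1.6e-06 from edgeR), whereas the methyltransferase FBL and the paralogue NOP58 did not pass, with log2 changes of 0.01 and 0.06 (standard errors 0.03 and 0.03). NOP56 was at 113, 113 and 112 CPM in Control, 126, 127 and 122 in Insulin, 116, 118 and 121 in Viperin and 136, 132 and 138 in Viperin + Insulin libraries. Insulin libraries with either plasmid were above every vehicle library for NOP56. FBL was at 120.5, 131 and 128 CPM in Control, 127, 123 and 124 in Insulin, 115, 119 and 114 in Viperin and 119, 119 and 120.2 in Viperin + Insulin libraries, and insulin and vehicle libraries overlapped with either plasmid. Small nucleolar RNA genes that NOP56 hosts in its introns are annotated over 9.54% of its exon bases, together with a microRNA gene. Of the box H/ACA proteins, which guide pseudouridylation, DKC1, the pseudouridine synthase dyskerin, rose by 9.72% and NOP10 by 8.71%, while NHP2 and GAR1 had log2 changes of 0.04 and 0.13 and did not pass. The scaffold proteins NOLC1 and TCOF1 rose by 10.1% and 5.95%. The call of TCOF1 was lost without Control library 1, Insulin library 3, Viperin library 1 or Viperin + Insulin library 1.

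Of the abundant proteins of the nucleolus, NCL, or nucleolin, rose and NPM1 did not pass. NCL was at 808, 923 and 968 CPM in Control, 969.9, 996 and 967 in Insulin, 855, 874 and 811 in Viperin and 928, 900.5 and 948 in Viperin + Insulin libraries. Control library 1 was the lowest of all 12, and the insulin effect was 8.95% (log2 change 0.12 ± 0.03 SE, adjusted p = 0.0084 from edgeR). NPM1 had a log2 change of 0.04 ± 0.02 (SE, adjusted p = 0.37 from edgeR) with insulin.

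**Figure D3:**
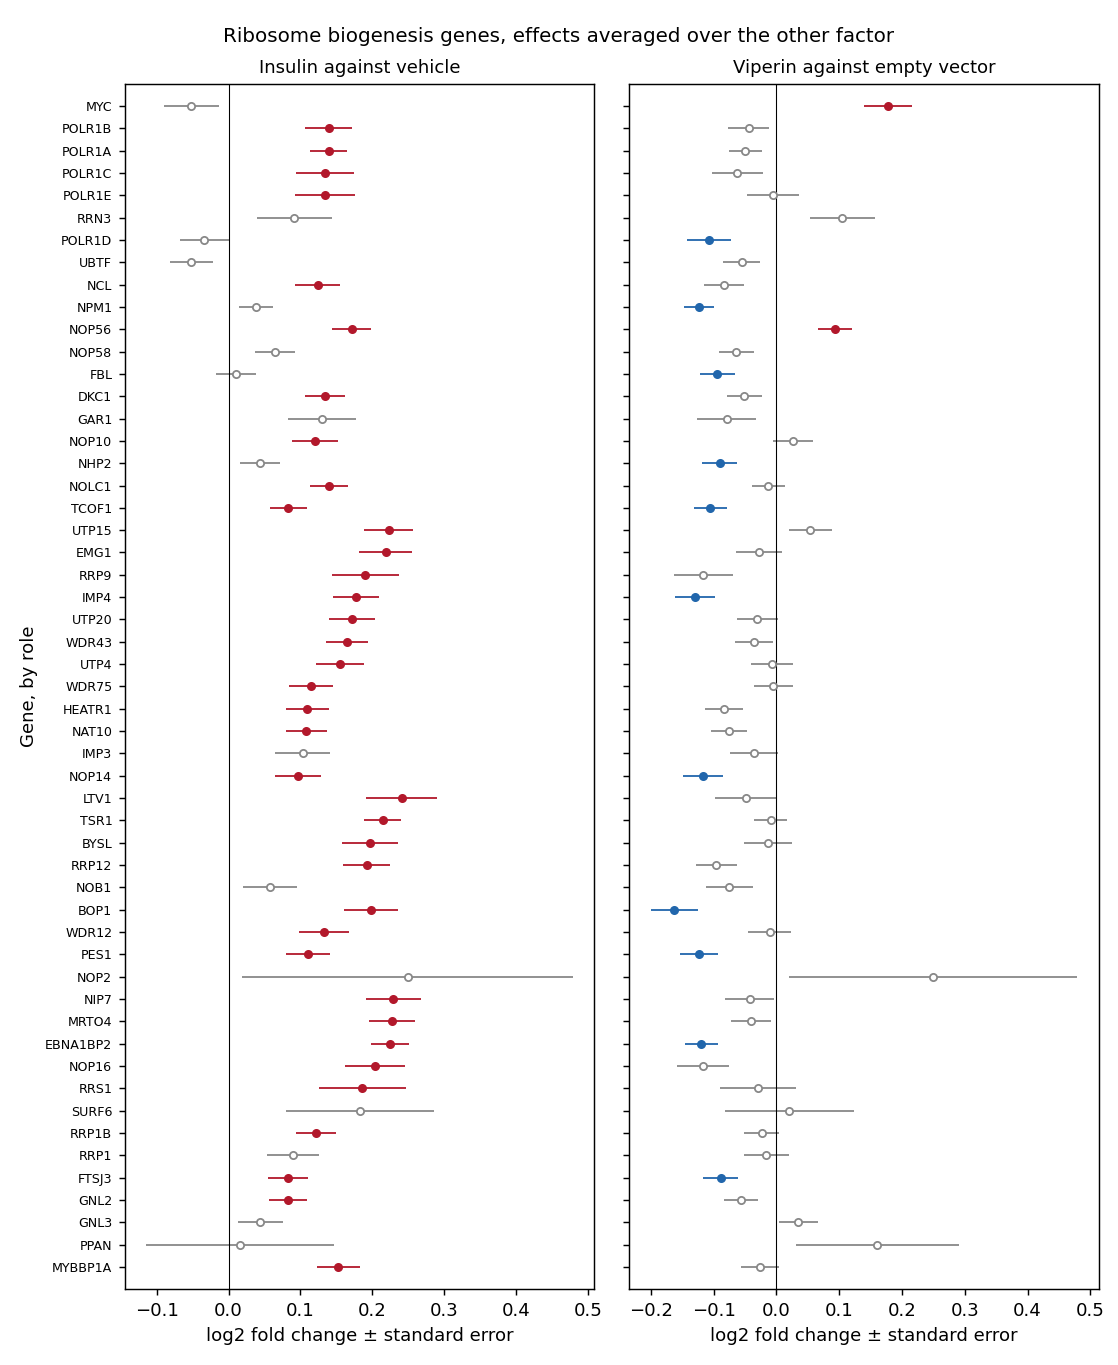
Log2 fold changes ± standard error of the 53 genes, ordered by role, for insulin against vehicle (left) and Viperin against empty vector (right), each averaged over the other factor with 6 libraries on either side. Filled red points passed an adjusted p of 0.05 from edgeR and were higher, filled blue points passed and were lower, and open grey points did not pass; 37 genes were higher with insulin, and 2 were higher and 11 lower with Viperin.

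MYC, the regulator in the set, did not pass for insulin. It was at 31.6, 29.3 and 32.6 CPM in Control and 31.3, 31.4 and 30.99 in Insulin libraries, which overlap, and at 36.4, 36.7 and 36.8 in Viperin and 34.1, 34.97 and 33.1 in Viperin + Insulin libraries. Its insulin effect was -3.54% (log2 change -0.05 ± 0.04 SE, adjusted p = 0.47 from edgeR). Among 10 tested partners and antagonists of MYC, 5 fell with insulin averaged over both plasmids and none rose. Of all genes 5.97% fell, and of the 8034 more abundant genes 11.7%. Within 1 plasmid, 4 of the 10 fell in empty vector cells (2.96% of all genes and 6.30% of the more abundant genes). In Viperin cells 1 fell (2.39% and 5.20%). MXI1, which pairs with MAX and represses MYC target genes, was at 52.5, 53.8 and 53.5 CPM in Control, 43.4, 39.6 and 40.3 in Insulin, 56.7, 56.97 and 51.6 in Viperin and 42.8, 40.2 and 43.6 in Viperin + Insulin libraries. It fell by 23.1% (log2 change -0.38 ± 0.03 SE, adjusted p = 1.1e-13 from edgeR). MNT and MXD4, repressors of the same kind, fell, with log2 changes of -0.21 and -0.16 (adjusted p = 8.9e-05 and 1.4e-04 from edgeR). The other 2 were MXD3 and MLXIP, named after their values were seen, with log2 changes of -0.23 and -0.12. MAX itself had a log2 change of -0.00 ± 0.03 (SE), and MYCN was under the count filter.

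**Figure D4:**
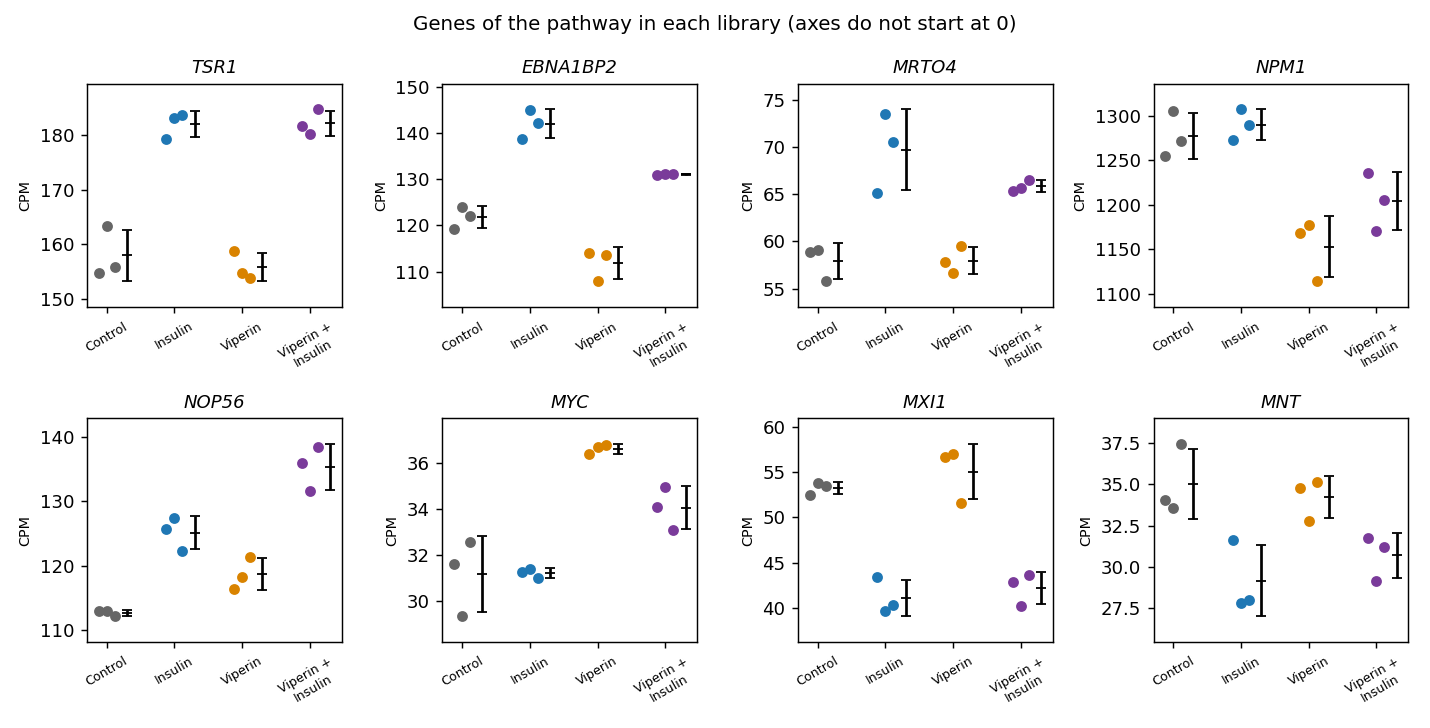
CPM of 8 genes in the 12 libraries (points) with the mean ± SD of the 3 libraries of each group (black), on axes that do not start at 0. TSR1, EBNA1BP2, MRTO4 and NOP56 are higher and MXI1 lower in both insulin groups, NPM1 is lower in the Viperin groups, and MYC is highest in Viperin cells.

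MYC and the repressors MXI1, MNT and MXD4 bind the E-box CACGTG. The promoters of the members were searched for these letters, which read the same on both strands. A part of these repressors in the insulin response was not tested. RefSeq promoters (GRCh38.p14, from 250 bases before to 50 bases after the start) were at hand for 44 members. CACGTG was in 18 of them (40.9%), against 9.56% of 13349 promoters of tested genes and 7.43% of all 27305 promoters. Neither of these sets was matched to the members for abundance. It was in 15 of 30 promoters of members that rose with insulin and in 3 of 14 of those that did not pass. Those 3 were FBL, NOP2 and SURF6. NOP2 and SURF6 had log2 changes of 0.25 and 0.18 with insulin but held few counts. The 2 shares were not tested against each other. Of the members that rose, 6 held the E-box before the RefSeq start. The following stretches show it in capitals, for NOP10 the copy nearest to that start. The GENCODE 44 gene spans begin elsewhere for some of them. By those spans the stretches of EBNA1BP2 (chr1:43164175-43270936) and UTP4 (chr16:69131291-69231130) lie inside the gene. Those of NOP10 (chr15:34339159-34343180) and NAT10 (chr11:34105617-34147670) reach into it. The stretches are written on the strand of the gene. All but those of EBNA1BP2 and IMP4, whose E-box lies farther upstream, end at the base before the RefSeq start.
EBNA1BP2, chr1:43172755-43172820, minus strand: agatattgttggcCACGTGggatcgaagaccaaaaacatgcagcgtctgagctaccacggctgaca
NOP10, chr15:34343137-34343194, minus strand: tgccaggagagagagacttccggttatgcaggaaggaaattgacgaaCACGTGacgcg
NAT10, chr11:34105567-34105628, plus strand: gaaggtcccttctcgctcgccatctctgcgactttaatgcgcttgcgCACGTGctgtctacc
UTP4, chr16:69132586-69132648, plus strand: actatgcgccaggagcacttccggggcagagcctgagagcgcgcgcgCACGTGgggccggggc
UTP20, chr12:101280048-101280104, plus strand: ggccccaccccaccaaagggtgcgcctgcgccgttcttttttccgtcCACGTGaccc
IMP4, chr2:130342647-130342746, plus strand: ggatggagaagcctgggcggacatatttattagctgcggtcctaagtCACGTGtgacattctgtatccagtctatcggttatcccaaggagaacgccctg
NOP10 and IMP4 held 2 copies each. The other copy of NOP10 lies farther upstream and that of IMP4 after its start, and neither is shown. In the other members that rose and held the E-box, such as MRTO4 with 1 copy, it lay across or after the start. TSR1 and UTP15, which also rose, held none in the window. The letters were counted as a description, and binding was not measured.

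The insulin response was seen with either plasmid. In empty vector cells, 23 members rose and none fell, with a median log2 change of 0.13. Of all genes 2.53% rose, 2.96% fell and 5.49% were called in all, and of the 8034 more abundant genes 6.39% rose and 6.30% fell. At an adjusted p of 0.001 it was 4 members, beside 1.18% of all genes. In Viperin cells, 21 rose and none fell, with a median of 0.12. Of all genes 2.17% rose, 2.39% fell and 4.56% were called in all, and of the more abundant genes 5.55% rose and 5.20% fell. At an adjusted p of 0.001 it was 4 members, beside 1.11% of all genes. All 3 Insulin libraries were above all 3 Control libraries for 30 members, against 9.69% of all genes, and all 3 Viperin + Insulin libraries were above all 3 Viperin libraries for 36, against 11% of all genes. Of the 23 and the 21 members, 15 were shared, among them TSR1, EBNA1BP2, MRTO4, NOP56, RRP12 and NOLC1. Only 12 of the 23 and 7 of the 21 passed whichever library was left out. NOLC1 was kept in 8 of 12 such fits in empty vector cells and in 11 in Viperin cells. UTP4, also shared, was kept in 6 and 7 of the 12, and BOP1, also shared, in 12 and 7. POLR1B, DKC1, UTP20, WDR12, NAT10, NOP16, RRS1 and HEATR1 passed in empty vector cells alone, and POLR1A, POLR1C, NOP10, RRP9, LTV1 and RRP1B in Viperin cells alone. That division does not show a difference between the plasmids. In the test of the difference of the insulin responses, no member and none of the 23041 genes passed (0% called) by edgeR, and DESeq2 and limma-voom also called no member. The unadjusted p was under 0.05 for 3 members and for 1297 of all genes. The smallest among members was that of UTP20, which rose by 19.96% in empty vector cells and had a log2 change of 0.08 in Viperin cells (difference -0.18, standard error 0.06, adjusted p = 0.65 from edgeR). Without Control library 2 or Insulin library 2, 15 and 13 members rose in empty vector cells. Without Viperin library 1 or 2 or Viperin + Insulin library 1, 12, 13 and 11 rose in Viperin cells.

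Viperin OE moved fewer members, and most of those that moved fell. Averaged over both insulin states, 11 of 53 members fell, 2 rose and 40 did not pass, while 3.49% of all genes fell and 4.47% rose (8.87% and 9.56% of the 8034 more abundant genes). At an adjusted p of 0.001 it was 2 members, NPM1 and MYC, beside 2.05% of all genes. The median log2 change was -0.04 over the members, and 44 of 53 had a negative sign. NPM1 (chr5:171387116-171411810) had the smallest p. It was at 1255, 1305 and 1272 CPM in Control and 1273, 1307 and 1289.8 in Insulin libraries, against 1168, 1177 and 1114 in Viperin and 1236, 1171 and 1205 in Viperin + Insulin libraries. The 6 libraries with the Viperin plasmid were below the 6 with the empty vector, and NPM1 fell by 8.203% (log2 change -0.12 ± 0.02 SE, adjusted p = 1.9e-04 from edgeR). EBNA1BP2 fell by 7.93% (log2 change -0.12 ± 0.03 SE, adjusted p = 0.0015 from edgeR) and BOP1 fell by 10.6% (log2 change -0.16 ± 0.04 SE, adjusted p = 0.002 from edgeR). PES1, the partner of BOP1, fell by 8.18%, whereas WDR12, the third PeBoW protein, had a log2 change of -0.01 ± 0.03 (SE). Among processome proteins, IMP4 and NOP14 fell, with log2 changes of -0.13 and -0.12. TCOF1, FBL, NHP2, FTSJ3 and POLR1D also fell, with log2 changes of -0.10, -0.09, -0.09, -0.09 and -0.11. TCOF1, also known as treacle, links Pol I to rRNA modification and was at 193, 201 and 214 CPM in Control, 211, 211 and 213 in Insulin, 183, 186 and 188 in Viperin and 204, 199.9 and 195 in Viperin + Insulin libraries.

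The 2 members that rose with Viperin OE were MYC and NOP56. MYC rose by 13.1% (log2 change 0.18 ± 0.04 SE, adjusted p = 8.0e-04 from edgeR), and by 17.4% in vehicle cells (log2 change 0.23 ± 0.05 SE, adjusted p = 0.0081 from edgeR). Under insulin, Viperin + Insulin libraries were again above Insulin libraries, but the effect of 8.92% did not pass (adjusted p = 0.24 from edgeR). NOP56 rose by 6.71% (log2 change 0.09 ± 0.03 SE, adjusted p = 0.017 from edgeR) and was the only member called higher for both insulin and Viperin in the averaged comparisons. Of the 37 members that rose with insulin, 7 fell with Viperin OE, namely TCOF1, IMP4, NOP14, BOP1, PES1, EBNA1BP2 and FTSJ3, and 29 did not pass for Viperin. Another 4, POLR1D, NPM1, FBL and NHP2, fell with Viperin OE and did not pass for insulin. UBTF, RRN3, NOP58, GAR1, IMP3, NOB1, NOP2, RRP1, GNL3, PPAN and SURF6 passed in neither. Of the 11 that fell, NPM1, TCOF1, IMP4, BOP1, PES1 and EBNA1BP2 passed in the averaged comparison whichever library was left out, and so did MYC. NOP14 was lost without Control library 2, FBL without Control library 2 or Insulin library 1, and NHP2 without Insulin library 2 or 3, Viperin library 1 or Viperin + Insulin library 1 or 2. POLR1D and FTSJ3 were kept in 5 and 4 of 12 such fits, and both were lost without Insulin library 2 or 3, Viperin library 2 or 3 or Viperin + Insulin library 2 or 3. The call of NOP56 was lost without Insulin library 3 or Viperin + Insulin library 3, where the highest adjusted p was 0.0782 from edgeR.

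Within each insulin state few members passed for Viperin OE. In vehicle cells NPM1 and TCOF1 fell and MYC rose, and 50 members did not pass (1.04% of all genes fell, 1.25% rose and 2.29% were called in all, and 5.74% of the 8034 more abundant genes were called). The call of TCOF1 in vehicle cells was kept in 1 of 12 fits with 1 library left out, that without Control library 1, and was lost with the replicate block, without the robust option and with only the groups compared. Under insulin BOP1 and NHP2 fell and 51 did not pass (0.99% of all genes fell, 2.09% rose and 3.08% were called in all, and 7.21% of the more abundant genes were called). The unadjusted p was under 0.05 for 16 members in vehicle cells and 18 under insulin. All 3 Viperin libraries were below all 3 Control libraries for 19 members, against 7.63% of all genes, and all 3 Viperin + Insulin libraries were below all 3 Insulin libraries for 20, against 9.88% of all genes. The reverse order held for 2 members in vehicle cells (8.16% of all genes) and 4 under insulin (11.8% of all genes). At an adjusted p of 0.001 no member passed in either state (0.304% and 0.473% of all genes). These counts of calls rested on single libraries. In vehicle cells 10 members passed without Control library 1 (8 lower), none without Control library 2, 1 without Viperin library 3, and 12 (10 lower) with both Control library 1 and Viperin library 3 removed. Under insulin 5 passed without Control library 1, 6 without Control library 3, none without Insulin library 3, 1 each without Insulin library 2 or Viperin + Insulin library 1 or 2, and 14 (13 lower) when only Insulin and Viperin + Insulin libraries were fitted. NCL, at a log2 change of -0.08 averaged over both insulin states (adjusted p = 0.11 from edgeR), passed without Control library 1 (-0.12, adjusted p = 1.2e-04 from edgeR). Mitochondrially encoded genes took 5.59% to 6.64% of counts in Control, 5.14% to 5.18% in Insulin, 4.81% to 5.34% in Viperin and 4.28% to 4.52% in Viperin + Insulin libraries. With these genes and RSAD2 left out of the library sizes, 37 members rose with insulin, and 12 fell and 2 rose with Viperin OE in the averaged comparisons.

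Genes of the pathway outside the 53 were read from 4 lists of 105 tested genes. The lists were chosen with earlier results of these data known, so they are no independent check of the 53. Of the 105 genes, 43 rose with insulin, 1 fell and 61 did not pass, with a median log2 change of 0.09. Of all genes 5.76% rose and 5.97% fell (14.1% and 11.7% of the more abundant genes). Of 39 further genes of the small subunit processome and its maturation, 20 rose, among them PNO1, which binds the platform of the small subunit, by 18.8%, the processome scaffold NOL6 by 16.4% and DCAF13 by 13.7%. Of 39 further large subunit genes, 18 rose, with URB2 at 19.2%, and 1 fell. That gene was NOP53, which links the large subunit precursor to the exosome and fell from 101, 94.3 and 104 CPM in Control to 82.9, 87.4 and 82.9 in Insulin and from 96.8, 94.3 and 101 in Viperin to 82.3, 88.9 and 77.03 in Viperin + Insulin libraries (log2 change -0.24 ± 0.03 SE, adjusted p = 2.0e-08 from edgeR). Of 14 exosome genes 4 rose. Of 13 further Pol I genes 1 rose, a share near that of all genes. With Viperin OE, 13 of the 105 genes fell, 1 rose and 91 did not pass, with a median of -0.05, beside 3.49% of all genes that fell and 4.47% that rose (8.87% and 9.56% of the more abundant genes). AATF, NSA2, NOC2L and TSR3 led those that fell, with log2 changes of -0.21, -0.13, -0.13 and -0.17. MDN1, the AAA ATPase that strips factors from the large subunit precursor, rose by 11.7% (log2 change 0.16 ± 0.03 SE, adjusted p = 6.9e-04 from edgeR). MYCL, from the list of MYC partners, rose by 18.1% (adjusted p = 0.034 from edgeR).

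Over the 12 libraries, the members varied together mainly through the groups. The mean pairwise Pearson correlation of log2 CPM among the 53 genes was 0.448 over the 12 libraries and 0.034 after the group means were removed. Over the 8034 genes at least as abundant, the mean was 0.0078 and 0.0093. Genes that rose and genes that fell both enter that mean, which draws it towards 0. The contrast with 0.448 therefore adds nothing to the group differences given above. These correlations are descriptions, since all genes share the same 12 libraries and their depth. EBNA1BP2 and IMP4 had the highest median correlation with the other members (0.769 and 0.764), and MYC (-0.393), UBTF (-0.127) and PPAN (-0.107) the lowest.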

How the data were processed

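The data are 12 mRNA-seq libraries of 12Z cells. The authors removed adapters with Trim Galore and cutadapt, ran FastQC, and used STAR for alignment to hg38 and for the counts of read pairs per gene. Tool versions were not stated in the sources read. The deposited values are raw counts, unstranded and for each strand, without normalization or filtering. Reverse-strand counts were used, which held 94.1% to 94.3% of strand-assigned pairs, and lines that name no gene were left out (9.44% to 13.9% of pairs mapped to several places, 3.37% to 4.05% matched no gene, 3.63% to 3.93% matched several genes and 3.32% to 4.46% were unmapped).

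Symbols of 60357 of 60617 genes came from GENCODE 44 and promoters from RefSeq. Genes averaging 1 count or more per library were kept and scaled by TMM. A model with 4 group means was fitted by robust quasi-likelihood in edgeR 4.0.16 (R 4.3.3, prior count 2). CPM are TMM-scaled. Standard errors were derived from the F statistic. Calls used Benjamini-Hochberg adjusted p under 0.05 over all genes. The study used DESeq2 with IHW and a threshold of 0.001. Simulated counts were used to test the script.

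The members, lists and rules were chosen with earlier results of these data known. Members named with values are up to 12 higher and 12 lower by p in each comparison and 18 fixed genes, with up to 4 others of the pathway in each direction. Further members are named to account for all 53, and those were chosen after their values were seen. Alternatives were RLE size factors, library sizes without RSAD2 and mitochondrial genes, DESeq2 1.42.0, limma-voom (limma 3.58.1), other count filters, unstranded counts, a replicate block, no robust option, fewer groups, left-out libraries and a stricter threshold. Libraries of a group came from independent experiments, per the methods. Figures were made with Python 3.11.15 and matplotlib 3.10.9. Of the listed other genes of the pathway, 2 of 107 had no match by symbol.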

Additional observations from a re-analysis of the deposited data

How the results depend on the processing

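The directions of the averaged insulin and Viperin calls held in every alternative: no member fell with insulin, and no more than 2 rose with Viperin. Under the threshold of 0.001, the counts of members called were 20 for insulin averaged, 4 in empty vector cells, 4 in Viperin cells, 2 for Viperin averaged, 0 in vehicle cells and 0 under insulin. With 1 library left out, the counts ran from 32 to 37 for insulin averaged, 13 to 23 in empty vector cells, 11 to 25 in Viperin cells, 9 to 16 for Viperin averaged, 0 to 10 for Viperin in vehicle cells and 0 to 6 under insulin. The count for Viperin under insulin was 4 by DESeq2, 4 with filterByExpr, 4 with library sizes without RSAD2 and mitochondrial genes, 8 without Control library 1 and Viperin library 3 together and 14 with only the groups compared. In vehicle cells it was 12 without those 2 libraries and 1 with only the groups compared. The median log2 fold change for Viperin in vehicle cells was -0.0489 with unstranded counts and ran from -0.0437 to -0.0251 with 1 library left out, that under insulin from -0.0661 to -0.0427, and that of the difference from -0.00367 to 0.0224. With a replicate block, the counts were 37 for insulin averaged, 21 in empty vector cells, 21 in Viperin cells, 13 for Viperin averaged, 2 in vehicle cells, 2 under insulin and 0 for the difference. No label ties equal replicate numbers to each other, and 0 of 18 same-numbered pairs had deviations correlated above 0.1 (-0.10 to 0.08), with 2 of 12 libraries closest to their own number. Of alternative values of genes named by rule, 2024 kept their side of the threshold, 68 lost it, 5 gained it and none reversed. That tally counts genes that passed in neither fit as kept, and leaves out weaker insulin calls such as FTSJ3, RRS1 and NOP14. Of all members called, 29 of 37 held in every fit with 1 library left out for insulin averaged. It was 12 of 23 in empty vector cells and 7 of 21 in Viperin cells. For Viperin averaged, 6 of 11 lower and 1 of 2 higher calls held, and none within either insulin state. Low counts limit NOP2, PPAN and SURF6 and give standard errors above those of the other members. NOP2 and PPAN also share exon bases with other gene models, as given above.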

Other observations

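The members act on rRNA together with the cytosolic ribosomal proteins. Of 78 tested ribosomal protein genes, 2 rose (RPL26 and RPS26), 7 fell and 69 did not pass for insulin averaged over both plasmids, with a median log2 change of -0.02. The share that rose was under that of all genes (5.76%), and the share that fell was above that of all genes (5.97%). Both were under those of the 8034 more abundant genes (14.1% and 11.7%). RPL13A (log2 change -0.17), RPL22 (-0.17) and RPL3 (-0.13) had the smallest p of those that fell, with adjusted p = 1.0e-07, 5.3e-05 and 2.7e-05 from edgeR. With Viperin OE averaged over both insulin states, 30 of the 78 fell, none rose and 48 did not pass, with a median of -0.07. Of all genes 3.49% fell, and of the more abundant genes 8.87%. In vehicle cells 14 of the 78 fell (1.04% of all genes and 2.69% of the more abundant genes). Under insulin 3 of the 78 fell (0.99% and 2.45%). Fits with a library left out were not read for the ribosomal protein genes. The smallest p was that of RPL11, at -0.16 ± 0.03 (SE, adjusted p = 3.1e-05 from edgeR), followed by RPL7 at -0.14 and RPS2 at -0.15. The ribosomal protein genes were named after their values were seen, many have pseudogenes that can take or share reads, and the ribosomal protein genes were not tested against the biogenesis genes.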
